A study of Mus musculus with 17 samples.

Results

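Expression of 8 genes of zinc handling was followed through 17 bulk RNA sequencing libraries of mouse tissue: the metallothioneins Mt1 and Mt2, the metal-responsive transcription factor Mtf1, the zinc exporters Slc30a1 and Slc30a10, and the importers Slc39a4, Slc39a5 and Slc39a14. The genes were selected on pathway membership with measured values in view, namely the Mt2 counts of crypts after hepatectomy against sham, so values of that contrast are given below as a description without p-values. They are 8 of 33840 genes in the intestinal files and 8 of 24594 identifiers in the files labelled liver, and all 8 passed the filter on low counts in both sets. Every library carries the genotype label WT. In 8 libraries the tissue is small intestine, prepared as IEC, intestinal epithelial cells, or as crypts, the pits where stem cells divide, and the mice had a sham operation or a hepatectomy, in which liver is cut out. Each of those 4 groups has 2 libraries. The other 9 libraries are labelled liver with the treatment DSS, dextran sulfate sodium, an agent used to injure the colon, and a time of day 0, day 10 or day 20, and each time has 3 libraries. No label gives a strain, an age, the extent of the hepatectomy or the time after surgery, and none says whether 2 libraries of a group are from 2 animals. The p-values below therefore rest on a spread between libraries that may be technical.

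Metallothioneins are small cysteine-rich proteins that bind zinc and copper and buffer the free ion. Their genes are driven by MTF-1, the product of Mtf1, a zinc-sensing factor that binds metal response elements in promoters, and metallothionein genes also respond to glucocorticoids and to inflammation. SLC30 (ZnT) proteins move zinc out of the cytosol: Slc30a1 encodes the plasma membrane exporter, another target of MTF-1, and Slc30a10 encodes a transporter best known for exporting manganese from liver and intestine. SLC39 (ZIP) proteins move zinc into the cytosol: Slc39a4 encodes the apical uptake transporter of the small intestine, Slc39a5 a transporter on the basolateral side of enterocytes, and Slc39a14 a carrier of zinc, manganese and iron that is prominent in liver.

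The sequences before the annotated start sites of 4 of these genes are printed to show where core letters of the metal response element lie. The search was for TGCACNC and TGCGCNC on both strands in the 250 bases before each gene's start in RefSeq (GRCm38.p6), and capitals mark the matches. The Mt1 window is chr8:94178839-94179081, that of Mt2 is chr8:94172368-94172617, that of Slc30a1 is chr1:191906531-191906766 and that of Slc30a10 is chr1:185454598-185454847, all on the plus strand and upstream of the annotated gene.
Mt1: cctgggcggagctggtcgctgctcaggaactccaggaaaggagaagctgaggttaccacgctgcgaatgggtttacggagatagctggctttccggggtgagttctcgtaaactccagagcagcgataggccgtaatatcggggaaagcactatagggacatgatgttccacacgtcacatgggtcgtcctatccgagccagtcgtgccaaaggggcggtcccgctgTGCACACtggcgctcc
Mt2: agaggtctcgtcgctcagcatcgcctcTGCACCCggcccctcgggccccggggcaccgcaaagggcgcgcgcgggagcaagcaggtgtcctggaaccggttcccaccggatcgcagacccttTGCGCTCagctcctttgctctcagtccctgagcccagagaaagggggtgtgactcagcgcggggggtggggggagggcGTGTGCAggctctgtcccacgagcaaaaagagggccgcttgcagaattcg
Slc30a1: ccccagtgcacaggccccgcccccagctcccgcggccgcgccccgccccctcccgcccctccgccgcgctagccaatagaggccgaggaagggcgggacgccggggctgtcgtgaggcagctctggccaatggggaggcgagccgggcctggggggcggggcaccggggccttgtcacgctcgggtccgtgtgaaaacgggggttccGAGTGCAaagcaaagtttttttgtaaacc
Slc30a10: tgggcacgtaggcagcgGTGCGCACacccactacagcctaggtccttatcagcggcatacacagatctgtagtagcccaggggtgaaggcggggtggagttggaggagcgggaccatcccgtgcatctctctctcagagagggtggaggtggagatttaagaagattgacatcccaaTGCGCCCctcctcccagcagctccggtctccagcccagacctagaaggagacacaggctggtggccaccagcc
Mt1 held 1 match, TGCACAC, from 23 to 17 bases before the start. Mt2 held 3 matches: TGCACCC from 223 to 217 bases before the start, TGCGCTC from 128 to 122, and TGCACAC on the minus strand from 50 to 44. Slc30a1 held 1, TGCACTC on the minus strand from 43 to 37 bases before the start. In Slc30a10 there were 3, of which TGCGCAC on both strands between 233 and 226 bases before the start is a pair that overlaps itself, and the other is TGCGCCC from 73 to 67. In the first of its 2 windows, Slc39a5 held 1 match, and Mtf1 held none. Of 32851 mouse windows of the same length, 21.4% held at least 1 match and 1.26% at least 3. A match describes letters only, and binding was not measured. Bases after a RefSeq start were not searched. The Mtf1 window and the second Slc39a5 window lie wholly past those genes' starts in GENCODE, another annotation. Bases upstream of the GENCODE start of Mtf1 were therefore not searched. As Mt1's annotated exons fill its whole gene span, a start further in could have matches before it that are not counted. The numbers of matches therefore do not rank these genes. Slc39a4 and Slc39a14 were not searched.

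Levels are given as counts per 1e+06 (CPM) after TMM scaling. TMM gives each library a scale factor on the assumption that most genes do not change, and differences in cell content remain. Changes are given as log2 fold change ± SE from edgeR's quasi-likelihood test with Benjamini-Hochberg adjustment over all genes tested. An intestinal library held between 26609786 and 43580050 counts. One labelled liver held between 12742629, in replicate 3 of day 10, and 42669857. The day 0 and day 10 libraries go against the liver label. Alb, the albumin gene, was at 278 to 384 CPM on day 0 and 377 to 1170 CPM on day 10, against 53500 to 58100 CPM on day 20, whereas Olfm4, a gene of crypt stem cells, was at 6490 to 7180, 2630 to 4810 and 41.3 to 62.0 CPM. Defa24, a Paneth cell defensin, was at 16600 to 22400 CPM on day 0, at 3690 to 57400 CPM on day 10 and at 218 to 302 CPM on day 20. Day 20 against the other days therefore compares libraries of unlike tissue content. In the sham intestine, 12 of 12 enterocyte markers were lower in crypts than in IEC and 10 of 10 mitosis genes higher, but 7 of 10 Paneth cell markers were also lower in crypts and none was higher. Sham and hepatectomy libraries carry separate series of running numbers in the file headers, so the surgery cannot be told apart from whatever else those series differ in. In bulk RNA, fewer cells of a type and less RNA per cell cannot be told apart.

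Hepatectomy went with more metallothionein RNA in both intestinal preparations. In crypts, Mt1 was at 130 and 126 CPM after sham operation and at 361 and 342 CPM after hepatectomy. In IEC it was at 124 and 114 CPM against 209 and 233 CPM. The hepatectomy libraries lay above both sham libraries in each preparation, and the log2 fold change was 1.46 ± 0.06 in crypts and 0.89 ± 0.06 in IEC (adjusted p = 2.9e-07 in IEC). Mt2 started from a lower level and changed more. Its sham values were 8.82 and 9.65 CPM in crypts and 7.09 and 8.90 CPM in IEC. After hepatectomy they were 66.9 and 66.5 CPM in crypts and 27.8 and 31.0 CPM in IEC. The groups did not overlap, and Mt2 was 7.21-fold higher in crypts, a log2 fold change of 2.85 ± 0.09, and 3.67-fold higher in IEC (1.88 ± 0.10, adjusted p = 4e-08).

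The 2 metallothioneins did not keep a fixed proportion. The ratio of Mt1 to Mt2 counts was 17.5 and 12.8 in sham IEC and 14.7 and 13.1 in sham crypts, but 7.54 and 7.53 in IEC and 5.39 and 5.14 in crypts after hepatectomy. Every hepatectomy library had a lower ratio than every sham library. Per kb of exon, the mean level of Mt1 exceeded that of Mt2 in all 4 groups, at 95.5 ± 5.84 against 13.6 ± 2.18 CPM per kb in sham IEC and 282.2 ± 10.5 against 113.5 ± 0.45 CPM per kb in hepatectomy crypts (SD, n = 2). The 2 genes lie side by side on chromosome 8 of mm10 on the plus strand, Mt2 at 94172664 to 94173568 and Mt1 at 94179082 to 94180327. Mt2 overlaps the antisense gene Gm45774, which shares 45.8% of its 50-base words. The sources used here do not give the strand used for counting, so reads of this pair cannot be told apart. Gm45774 was at 0.614 to 0.634 CPM in sham IEC, 0.769 to 0.999 in sham crypts, 2.71 to 2.79 in hepatectomy IEC and 3.94 to 4.85 in hepatectomy crypts, moving with Mt2 at a small share of its level. Mt1 shares no 50-base word with another gene.

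**Figure D1:**
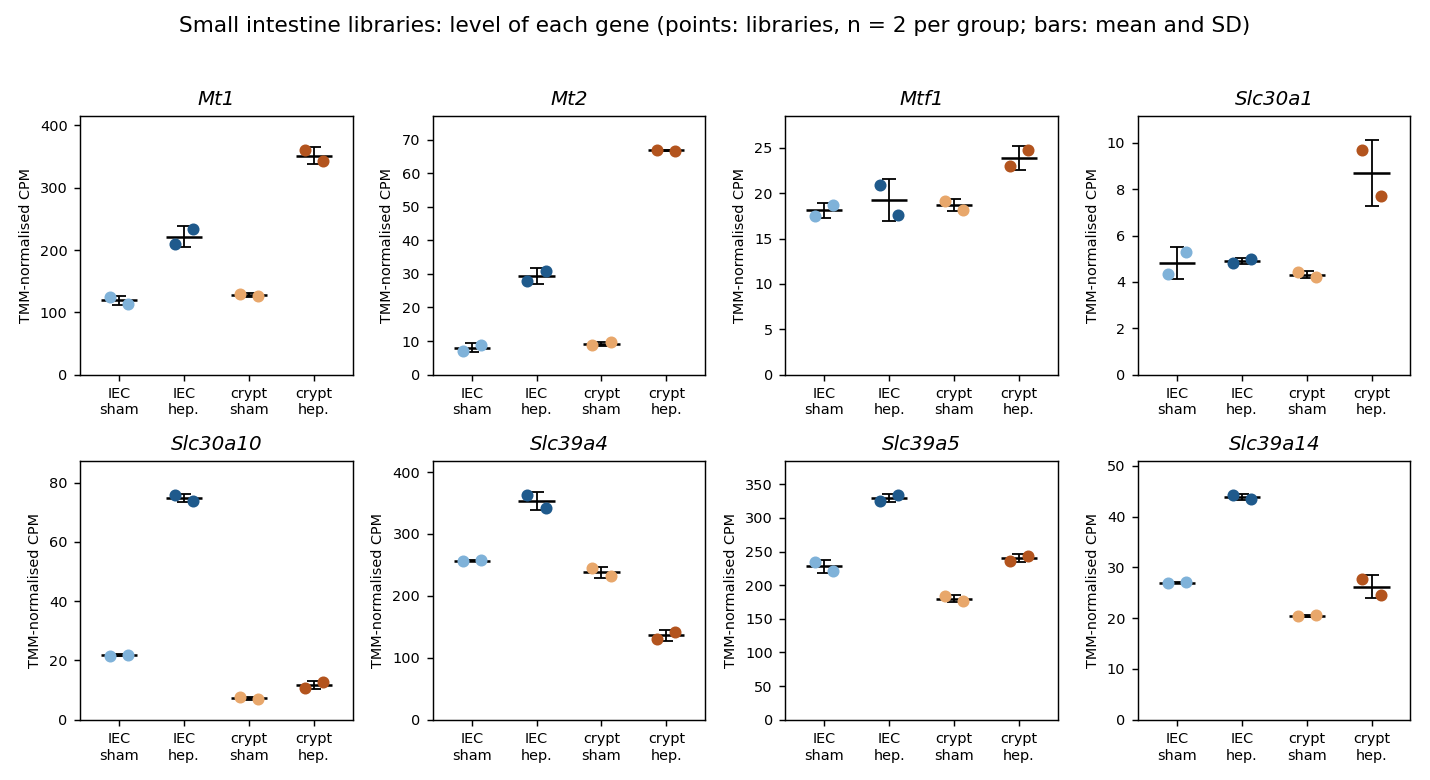
Level of each of the 8 genes in the small intestine, in TMM-normalised CPM on axes that start at 0. Points are libraries (n = 2 per group), horizontal bars are means and vertical bars SD; Mt1 and Mt2 are highest in hepatectomy crypts, Slc30a10 is highest in hepatectomy IEC, and Slc39a4 is lowest in hepatectomy crypts.

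Mtf1, the zinc sensor, had a fitted fold change of 1.28 in crypts and 1.07 in IEC. Its values were 17.5 and 18.7 CPM in sham IEC, 20.9 and 17.6 CPM in hepatectomy IEC, 19.2 and 18.2 CPM in sham crypts and 23.0 and 24.8 CPM in hepatectomy crypts. The groups overlapped in IEC, where the log2 fold change was 0.09 ± 0.10 (adjusted p = 0.49), and did not overlap in crypts, where it was 0.36 ± 0.09. As CPM of all counts, without TMM, the crypt groups overlapped, at 24.5 and 21.9 against 22.9 and 24.4 CPM. The crypt call was lost without replicate 2 of the hepatectomy crypts (0.29) or replicate 2 of the sham crypts (0.32). Mtf1 shares 7.55% of its 50-base words with the overlapping gene 1110065P20Rik. That gene was at 9.46 to 10.4 CPM in sham crypts and 13.7 to 18.5 CPM in hepatectomy crypts. In IEC it was at 8.92 to 9.9 CPM after sham operation and 11.9 to 12.1 CPM after hepatectomy. How many reads the pair exchanges was not tested.

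Of the exporters, Slc30a1 was higher after hepatectomy in crypts, and Slc30a10 changed most in IEC. Slc30a1 was at 4.41 and 4.22 CPM in sham crypts and 9.69 and 7.69 CPM in hepatectomy crypts, a log2 fold change of 1.01 ± 0.14. In IEC it was at 4.33 and 5.29 CPM against 4.80 and 5.0 CPM, with overlapping groups and a log2 fold change of 0.03 ± 0.16 (adjusted p = 0.92). Slc30a10 was at 21.6 and 22.0 CPM in sham IEC and 75.8 and 73.8 CPM in hepatectomy IEC. These groups were far apart, and the gene rose 3.43-fold in IEC (1.78 ± 0.08, adjusted p = 5.5e-09). In crypts it was at 7.58 and 6.97 CPM against 10.9 and 12.8 CPM, a log2 fold change of 0.71 ± 0.09. Slc30a1 shares 8.01% of its 50-base words with 1700034H15Rik and Slc30a10 shares 8.36% with Gm2061, so part of each count is uncertain. Gm2061 was at 5.1 to 6.16 CPM in sham IEC and 10.3 to 12.3 CPM in hepatectomy IEC. In crypts it went the other way, from 1.45 to 1.76 CPM to 0.969 to 1.05 CPM.

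Slc39a4, the apical importer, was the member that went in opposite directions in the 2 preparations. In crypts it was at 245 and 232 CPM after sham operation and 130 and 142 CPM after hepatectomy. In IEC it was at 257 CPM in both sham libraries and at 363 and 343 CPM after hepatectomy. Neither pair of groups overlapped, and the log2 fold change was -0.81 ± 0.05 in crypts and 0.46 ± 0.05 in IEC (adjusted p = 2.7e-05). Slc39a5, its basolateral counterpart, was higher after hepatectomy in both: 236 and 244 against 183 and 176 CPM in crypts, and 325 and 334 against 235 and 221 CPM in IEC. The log2 fold change of Slc39a5 was 0.42 ± 0.05 in crypts and 0.53 ± 0.05 in IEC (adjusted p = 2.9e-06). Without TMM the crypt groups nearly met, at 235.6 and 240.3 CPM of all counts after hepatectomy against 234.4 and 212.4 after sham operation. The ratio of Slc39a4 to Slc39a5 counts was 1.33 and 1.32 in sham crypts and 0.552 and 0.582 in hepatectomy crypts, whereas in IEC it was 1.09 and 1.16 against 1.12 and 1.03. The ratio therefore separated the crypt groups and overlapped in IEC. Slc39a14 was at 20.3 and 20.5 CPM in sham crypts and 27.8 and 24.6 CPM in hepatectomy crypts (0.35 ± 0.07). Without TMM those groups overlapped, at 26.0 and 24.8 against 27.7 and 24.3 CPM of all counts. In IEC, Slc39a14 was at 26.9 and 27.1 against 44.2 and 43.5 CPM, a rise of 0.70 ± 0.07 on the log2 scale (adjusted p = 8.6e-06).

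In IEC, 6 of 8 genes rose, none fell and 2 did not pass the test, where 37.8% of the 18207 genes tested were called, 19.5% rising and 18.3% falling. The median log2 fold change of the 8 genes was 0.61, against 0.02 over all genes. The 8 genes were listed with earlier results of these data known, among them the crypt values of Mt2. No label says whether IEC and crypt libraries come from the same mice, so the IEC count is not shown to be independent of that choice. In crypts 7 of 8 were higher and 1 was lower past an adjusted p of 0.05, where 37.5% of all genes were called, 19.2% higher and 18.3% lower, and nothing is read from that count because the contrast was known when the genes were listed. Their median was 0.56 against 0.01 over all genes. With DESeq2, with other filters and with any 1 library left out, the number of genes called stayed at 6 in IEC and at 7 or 8 in crypts.

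**Figure D2:**
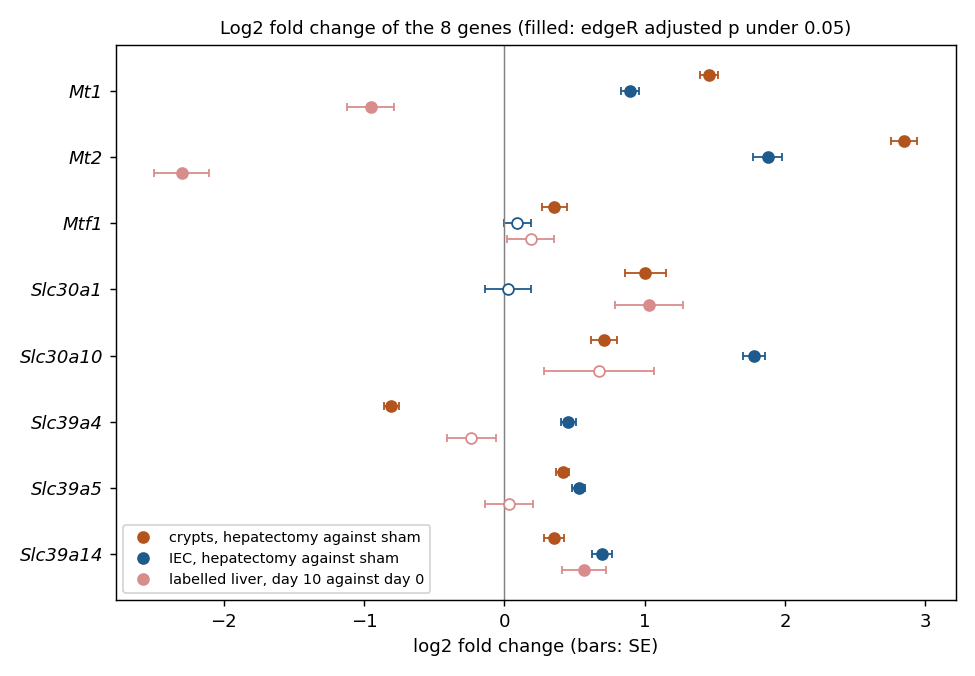
Log2 fold change (x axis) with SE for the 8 genes (y axis) in crypts and IEC, hepatectomy against sham, and in the libraries labelled liver, day 10 against day 0. Filled points passed an adjusted p of 0.05; Mt2 lies at 2.85 and 1.88 after hepatectomy and at -2.30 on day 10, and Slc39a4 lies on opposite sides of 0 in crypts and IEC.

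The interaction term, the change in crypts minus that in IEC, uses the crypt contrast, so its values are a description and nothing is read from their number. It was past the threshold for 6 of 8 genes, 3 with a higher value in crypts and 3 with a lower one, where 19.2% of all genes were called, 9.15% and 10.1% in those directions. On the log2 scale the crypt change exceeded the IEC change by 0.97 ± 0.14 for Mt2, by 0.98 ± 0.22 for Slc30a1 and by 0.56 ± 0.09 for Mt1. The difference was -1.26 ± 0.08 for Slc39a4, -1.07 ± 0.12 for Slc30a10 and -0.34 ± 0.10 for Slc39a14, and the last call was lost in 9 of 13 alternatives, including 7 of the 8 fits that left out 1 library. It was 0.26 ± 0.13 for Mtf1 and -0.11 ± 0.07 for Slc39a5, neither of which was called.

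In the sham intestine, 3 of the 5 transporters were lower in crypts than in IEC. Slc30a10 was lower by a log2 fold change of -1.59 ± 0.09 (adjusted p = 3.4e-08), Slc39a14 by -0.40 ± 0.07 (adjusted p = 0.00096) and Slc39a5 by -0.34 ± 0.05 (adjusted p = 0.00012). That makes 3 of 8 lower and none higher, where 38.6% of all genes were called, 19.3% in each direction, so the share called was close to that of all genes. Mt1 differed by 0.10 ± 0.06 (adjusted p = 0.22) and Mt2 by 0.21 ± 0.11 (adjusted p = 0.16), with overlapping Mt2 groups. Without replicate 2 of sham IEC, the Mt2 difference was 0.39 with an adjusted p of 0.04. The remaining genes also missed the threshold, Mtf1 at 0.04 ± 0.09, Slc30a1 at -0.16 ± 0.16 and Slc39a4 at -0.11 ± 0.05 (adjusted p = 0.13), although Slc39a4 passed at 0.016 when only these groups were fitted. Scaling matters here: as CPM of all counts without TMM, Slc39a5 was at 223.4 ± 15.5 in sham crypts and 221.3 ± 10.3 in sham IEC (SD, n = 2), so its direction turns. Slc39a14 kept its direction on that scale, but its groups nearly met, at 25.4 ± 0.88 in sham crypts and 26.2 ± 0.05 in sham IEC. The hepatectomy crypts include the Mt2 values known when the genes were listed, so crypts against IEC after hepatectomy is again a description from which nothing is read. There 4 genes were past the threshold higher in crypts and 4 lower, where 51.9% of all genes were called, 26.3% and 25.6% in those directions. The metallothioneins, Mtf1 and Slc30a1 were the higher ones, Mt2 by 1.18 ± 0.09, and Slc30a10 had the lowest value, -2.66 ± 0.08. Mtf1, at 0.31 ± 0.09, lost its call without replicate 2 of the hepatectomy crypts (0.26) or replicate 2 of the hepatectomy IEC (0.19).

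Per kb of exon, the order of the 8 genes changed with the group. In sham IEC, Slc39a5 (102.6 ± 4.39 CPM per kb), Mt1 (95.5 ± 5.84) and Slc39a4 (82.8 ± 0.11) came first, and the libraries of Slc39a5 and Mt1 overlapped (SD, n = 2). In sham crypts Mt1 at 102.7 ± 2.14 stood above Slc39a5 at 80.8 ± 2.23 and Slc39a4 at 76.7 ± 2.88. In hepatectomy IEC the order was Mt1 at 177.7 ± 13.7, Slc39a5 at 148.0 ± 2.89 and Slc39a4 at 113.6 ± 4.63. In hepatectomy crypts Mt1 led at 282.2 ± 10.5, followed by Mt2 at 113.5 ± 0.45, Slc39a5 at 107.8 ± 2.52 and Slc39a4 at 43.8 ± 2.71. Slc30a10, Slc39a14, Mtf1 and Slc30a1 were at 12.8 CPM per kb or less in all intestinal groups. Mt1's exon length equals its whole gene span in the annotation, so its level per kb may be understated.

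Cell type markers moved along with these contrasts, and their part in the changes was not tested. All 12 enterocyte markers rose after hepatectomy in both preparations, and their summed level went from 6020 to 6090 CPM to 14000 to 14100 CPM in crypts and from 33000 to 33500 CPM to 80000 to 83400 CPM in IEC. Apoa1, an apolipoprotein of chylomicrons, was the most abundant of them, at 1290 CPM in sham crypts and 3030 CPM in hepatectomy crypts. All 10 Paneth cell markers fell in crypts, summing to 1550 to 1720 CPM before and 750 to 752 CPM after, and 8 fell and 1 rose in IEC. All 8 goblet cell markers fell in crypts, and 3 rose and 3 fell in IEC. Of 10 mitosis genes, 9 fell in crypts and 10 in IEC. T and NK cell markers fell in crypts (8 of 8), from 86.6 to 92.0 CPM to 32.2 to 33.9 CPM, and 4 of 8 fell in IEC. B and plasma cell markers fell in 5 of 6 cases in each preparation (median -2.23 in crypts and -1.42 in IEC). Of 5 erythroid genes tested 4 fell in crypts and 3 rose in IEC, where their sum was 315 to 325 CPM after sham operation and 402 to 422 CPM after hepatectomy. Enteroendocrine markers rose in 5 of 8 cases in crypts and 4 of 8 in IEC, with 2 and 1 falling. Of 5 fibroblast and endothelial genes tested 3 rose in crypts and 2 in IEC, at sums of 7.9 CPM or less. Of 8 crypt stem cell markers 4 fell in crypts and 5 in IEC. Of 5 macrophage genes tested 1 fell in crypts and 2 rose in IEC, and 2 of 8 hepatocyte genes tested fell in each preparation, with 1 rising in crypts. Alb was at 0.242 CPM or less in every intestinal library.

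Genes of pathways known to act on metallothioneins were counted as lists. Of 8 glucocorticoid targets, 7 rose and none fell in IEC (median 0.88), their sum going from 144 to 146 CPM to 396 to 397 CPM. Sgk1, a kinase gene induced by steroids, was at 27.4 CPM in sham IEC and 188 CPM in hepatectomy IEC, and Tsc22d3, which encodes the glucocorticoid-induced leucine zipper, was at 55.8 and 108 CPM. In crypts, where the metallothionein values were higher, 2 of these targets rose and 4 fell (median -0.24), and the sum was 125 to 131 CPM in sham and 111 to 113 CPM in hepatectomy libraries. In crypts Tsc22d3 and Ddit4 fell by 0.41 and 0.78 on the log2 scale, and Klf9 rose by 0.35. Fkbp5, a chaperone gene outside the naming rule and chosen after its values were seen, rose by 0.75 ± 0.10 in crypts and 0.82 ± 0.10 in IEC. Of 8 targets of NRF2, the oxidative stress regulator, 5 rose in IEC and none fell, and in crypts 2 rose and 1 fell. Of 3 acute phase genes that could be tested, 2 rose in IEC and 1, Lcn2, in crypts. Their part in the metallothionein values was not tested.

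Other zinc transporters and metallothioneins formed a list of 21 genes, of which 20 are in the intestinal files and 17 could be tested. Of all genes tested, 37.8% were called in IEC and 37.5% in crypts. In IEC 6 of the 17 rose and 3 fell (median 0.07), and in crypts 3 rose and 6 fell (median -0.13). Slc39a10, which encodes a plasma membrane importer, fell in both: from 8.95 ± 0.07 to 3.95 ± 0.06 CPM in IEC (SD, n = 2), a log2 change of -1.18 ± 0.13 (adjusted p = 2e-05), and from 8.91 ± 0.51 to 3.51 ± 0.52 CPM in crypts (-1.36 ± 0.13). Slc30a2, a transporter of vesicles found in secretory cells including Paneth cells, rose in IEC from 34.4 ± 3.5 to 69.9 ± 2.3 CPM (1.02 ± 0.08, adjusted p = 4.5e-07) and in crypts from 18.4 ± 0.13 to 27.8 ± 1.5 CPM (0.60 ± 0.08). Its rise in crypts stood beside the fall of all 10 Paneth markers and the rise of all 12 enterocyte markers. The part of either in it was not tested. Slc30a5, an exporter into the early secretory pathway, rose by 0.68 ± 0.15 in IEC (adjusted p = 0.0037), where the sham libraries were at 46.3 and 69.1 CPM. Slc30a4 rose by 0.48 ± 0.10 in IEC (adjusted p = 0.0018) and 0.42 ± 0.10 in crypts, and Slc39a8, an importer of zinc and manganese, fell by 0.53 ± 0.10 in crypts. The largest change in crypts was in Mt3, another metallothionein gene outside the naming rule and chosen after its values were seen, which went from 0.558 ± 0.043 to 0.076 ± 0.024 CPM (-2.78 ± 0.52), opposite in direction to Mt1 and Mt2. In IEC, Mt3 was at 0.398 ± 0.034 and 0.565 ± 0.009 CPM (0.50 ± 0.43, adjusted p = 0.4). Mt4 was at 0.0588 CPM or less in all intestinal libraries.

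**Figure D3:**
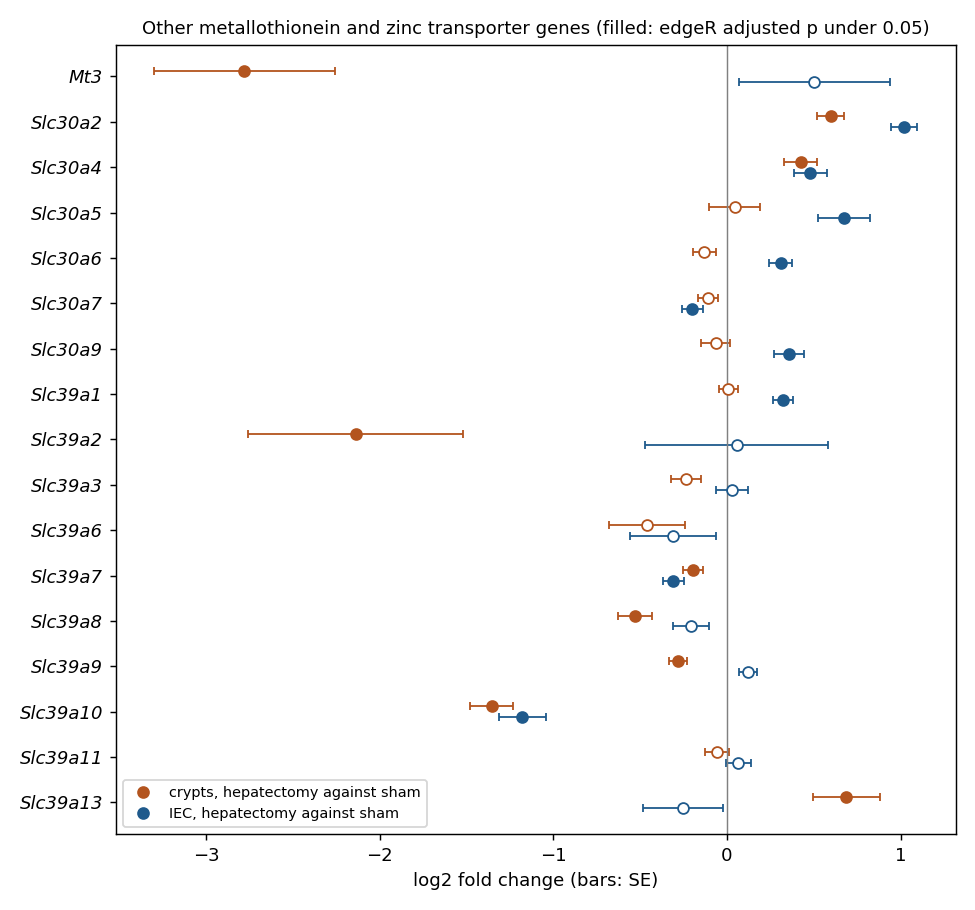
Log2 fold change (x axis) with SE for the 17 other metallothionein and zinc transporter genes tested (y axis) in crypts and in IEC, hepatectomy against sham. Filled points passed an adjusted p of 0.05; Slc39a10 lies at -1.36 and -1.18, Slc30a2 lies to the right in both preparations, and the leftmost filled points, Mt3 and Slc39a2 in crypts, are of genes under 1 CPM.

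In the sham intestine 2 of these 17 genes were higher in crypts than in IEC and 3 lower, where 38.6% of all genes were called. Slc30a2 was lower by -0.91 and Slc30a4 by -0.57, whereas Slc30a5 was higher by 0.44 and Slc39a8 by 0.42 on the log2 scale. After hepatectomy 3 were higher in crypts and 8 lower, where 51.9% of all genes were called. Slc30a2 was at -1.33, Slc39a9 at -0.71, Slc30a4 at -0.63 and Slc30a6 at -0.60.

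In the libraries labelled liver, day 10 had less metallothionein RNA than day 0. Mt1 was at 349, 272 and 282 CPM on day 0 and at 147, 172 and 148 CPM on day 10. Mt2 was at 67.1, 57.9 and 54.7 CPM on day 0 and at 10.9, 11.7 and 13.9 CPM on day 10. Neither gene's groups overlapped, and the log2 fold change was -0.95 ± 0.17 for Mt1 (adjusted p = 0.0023) and -2.30 ± 0.20 for Mt2 (adjusted p = 1.9e-05), a 4.92-fold lower level. Both held without the shallow replicate 3 of day 10, at -0.96 and -2.44. The ratio of Mt1 to Mt2 counts was 5.2, 4.69 and 5.15 on day 0 and 13.5, 14.7 and 10.6 on day 10. Day 0 thus lay near the hepatectomy crypts and day 10 near the sham intestine, in tables that were counted separately.

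**Figure D4:**
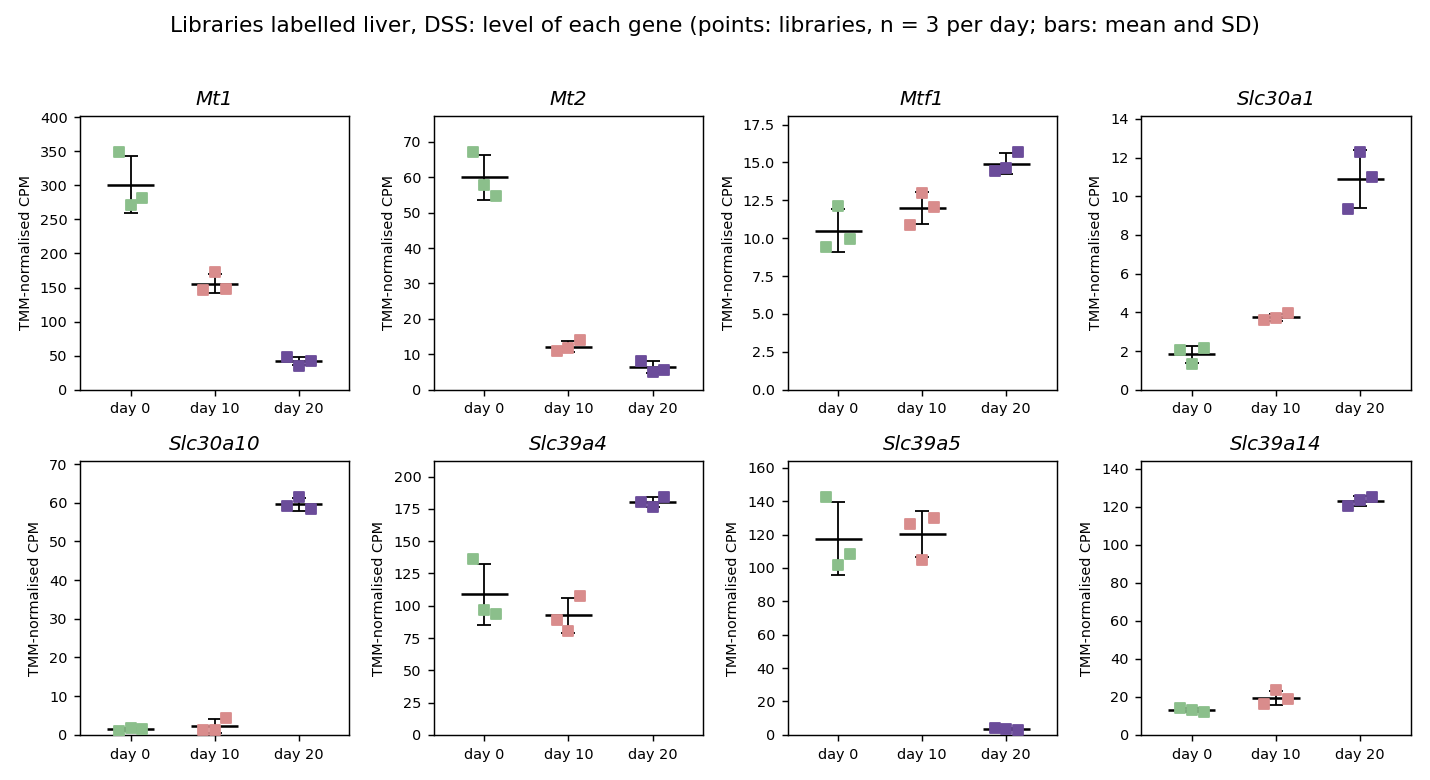
Level of each of the 8 genes in the libraries labelled liver, in TMM-normalised CPM on axes that start at 0. Points are libraries (n = 3 per day), horizontal bars are means and vertical bars SD; Mt1 and Mt2 step down from day 0 to day 20, while Slc30a10 and Slc39a14 are high and Slc39a5 low on day 20 only.

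Among the other genes on day 10, Slc30a1 was at 3.60, 3.71 and 3.95 CPM against 2.06, 1.33 and 2.13 CPM on day 0, without overlap, and rose by 1.03 ± 0.24 (adjusted p = 0.0073). Its change was 0.71 with an adjusted p of 0.052 without replicate 2 of day 0. Slc39a14 was at 16.0, 23.5 and 18.7 CPM against 13.9, 13.3 and 12 CPM, a rise of 0.57 ± 0.16 (adjusted p = 0.014). That call was lost in 5 of 16 alternatives, without replicate 2 (0.45) or replicate 3 (0.36) of day 0 or replicate 2 of day 10 (0.38), in a fit of these groups alone (0.48) and without the filter (0.36), with adjusted p up to 0.17. Slc39a4 was at 136, 97.0 and 93.4 CPM on day 0 and 89.3, 80.7 and 108 CPM on day 10, with overlapping groups (-0.23 ± 0.17, adjusted p = 0.28). Slc39a5 was at 143, 102 and 108 CPM against 126, 105 and 130 CPM, again overlapping (0.04 ± 0.17, adjusted p = 0.88). Mtf1 was at 9.42, 12.1 and 9.97 CPM against 10.9, 13.0 and 12.1 CPM (0.19 ± 0.17, adjusted p = 0.38). Slc30a10 was at 1.03, 1.76 and 1.41 CPM against 1.24, 1.39 and 4.34 CPM, so that replicate 3 of day 10 alone stood high. The log2 fold change of Slc30a10 was 0.68 ± 0.39 (adjusted p = 0.17) with that library and -0.14 without it. In all, 2 of 8 genes rose and 2 fell, where 43.6% of the 16694 genes tested were called, 24.7% rising and 18.8% falling, and their median was 0.11 against 0.10 over all genes. The same number, 4, was called without replicate 3 of day 10, and 2 were called without replicate 2 of day 0.

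Other lists moved between those days as well, and their part in the values was not tested. Of 12 acute phase genes, 10 rose on day 10 and none fell, summing to 289 to 408 CPM on day 0 and 387 to 1250 CPM on day 10. Of 12 hepatocyte markers 9 rose and none fell. Their sum went from 1030 to 2570 CPM to 2150 to 3650 CPM, against 143000 to 145000 CPM on day 20. Among them Cps1 had the highest mean on both earlier days, at 1210 ± 738 and 1050 ± 180 CPM (SD, n = 3). Cps1 did not pass the test (-0.21 ± 0.42, adjusted p = 0.69) and was also at 508 CPM or more in every intestinal library. Of 8 glucocorticoid targets 7 rose and none fell, from 163 to 175 CPM to 251 to 260 CPM, with Per1, a clock gene, at 24.6 and 43.8 CPM. The 10 Paneth markers summed to 36200 to 49400 CPM on day 0 and 7620 to 114000 CPM on day 10. Enterocyte markers rose in 8 of 12 cases and mitosis genes fell in 5 of 10 and rose in 1. Enteroendocrine markers fell in 7 of 8 cases (median -1.03), from 251 to 349 CPM to 124 to 137 CPM. Fibroblast and endothelial markers rose in 7 of 8 cases (median 1.78), from 2.25 to 3.42 CPM to 5.06 to 19.3 CPM. Of 7 macrophage markers 4 rose and none fell, although their sum was 296 to 420 CPM on day 0 and 50.9 to 323 CPM on day 10. Lyz2 made up most of that sum, at 338 ± 67.6 and 202 ± 146 CPM on those days (SD, n = 3). It did not pass the test (-0.74 ± 0.50, adjusted p = 0.24). Of the 18 other zinc genes tested, 2 rose and 6 fell (median -0.33), where 43.6% of all genes were called. Slc30a4 rose by 1.49 ± 0.32 (adjusted p = 0.005), from 10.8 ± 4.27 to 30.3 ± 12 CPM (SD, n = 3). Slc39a8 fell by 0.78 ± 0.13 (adjusted p = 0.0021), from 41.7 ± 0.76 to 24.4 ± 2.03 CPM, and Slc39a11 and Slc39a7 fell by 0.76 ± 0.18 and 0.70 ± 0.16.

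The day 20 libraries, which carried the hepatocyte markers, had a different set of zinc genes. Slc30a10 was at 59.1, 61.5 and 58.3 CPM and Slc39a14 at 120, 124 and 125 CPM, far above every library of the other days. Against day 0, Slc30a10 was 42.3-fold higher (5.40 ± 0.40, adjusted p = 5.1e-08) and Slc39a14 was 9.40-fold higher (3.23 ± 0.17, adjusted p = 1.4e-09). Slc39a5 was at 4.23, 3.33 and 3.03 CPM and 33.3-fold lower than on day 0 (-5.06 ± 0.21, adjusted p = 2.6e-10). Slc30a1 was at 9.34, 12.3 and 11 CPM, a difference of 2.57 ± 0.24 (adjusted p = 5.4e-07). Mt1 was at 47.9, 35.4 and 42.2 CPM and Mt2 at 8.20, 5.11 and 5.62 CPM, both below all libraries of day 0 and day 10. Their log2 fold changes against day 0 were -2.85 ± 0.18 (adjusted p = 8.1e-09) and -3.25 ± 0.20 (adjusted p = 9.7e-09).

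Slc39a4 was at 181, 177 and 184 CPM on day 20, above all libraries of day 0 and day 10 (0.73 ± 0.17 against day 0, adjusted p = 0.0021). Without TMM scaling that order turned, with Slc39a4 at 117.8 ± 2.34 CPM of all counts on day 20, 132.1 ± 16.8 on day 0 and 120.5 ± 48.4 on day 10 (SD, n = 3). Mtf1 was at 14.5, 14.6 and 15.7 CPM (0.51 ± 0.17, adjusted p = 0.016), and its order turned in the same way, at 9.75 ± 0.41 CPM of all counts on day 20 against 12.9 ± 2.44 on day 0. The Mtf1 call against day 0 was also lost in 4 of 16 alternatives, without replicate 1 (0.40) or replicate 3 (0.41) of day 0, without replicate 3 of day 20 (0.46) and without the filter (0.41). The overlapping gene 1110065P20Rik was at 4.86 to 5.05 CPM on day 0 and 13.1 to 14.3 CPM on day 20. Against day 0, 5 of 8 genes were higher and 3 lower, where 71.4% of all genes were called, 33.3% and 38.1% in those directions. Against day 10, 4 were higher and 3 lower, where 71.1% were called, 30.8% and 40.3% in those directions. There Mt1 differed by -1.90 ± 0.17 (adjusted p = 4.2e-07), Mt2 by -0.95 ± 0.20 (adjusted p = 0.00081) and Slc39a5 by -5.09 ± 0.21 (adjusted p = 3.5e-10). Slc30a10 differed by 4.73 ± 0.39, Slc39a14 by 2.67 ± 0.16, Slc30a1 by 1.54 ± 0.23 and Slc39a4 by 0.96 ± 0.17. Mtf1, at 0.32 ± 0.17 (adjusted p = 0.11), was called without replicate 1 of day 0 (0.40, adjusted p = 0.032). Both comparisons share the day 20 libraries, and neither can be given without the libraries that go against their label.

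Per kb of exon, Slc39a4 led on day 20 at 58.1 ± 1.23 CPM per kb, ahead of Mt1 at 33.6 ± 5.0, Slc39a14 at 11.7 ± 0.24, Mt2 at 10.7 ± 2.83 and Slc30a10 at 10.2 ± 0.28 (SD, n = 3), where Mt2 overlapped both of its neighbours. Mt1's exon length equals its whole gene span, so its level per kb may be understated. Its place below Slc39a4 on day 20 is therefore uncertain. On day 0 the order was Mt1 at 241.5 ± 33.7, Mt2 at 101.9 ± 11, Slc39a5 at 52.8 ± 9.83 and Slc39a4 at 35.0 ± 7.63. On day 10 it was Mt1 at 124.9 ± 11.4, Slc39a5 at 54.1 ± 6.21, Slc39a4 at 29.8 ± 4.41 and Mt2 at 20.7 ± 2.66. The ratio of Slc39a4 to Slc39a5 counts was 0.955, 0.951 and 0.864 on day 0, 0.706, 0.771 and 0.826 on day 10, and 42.7, 53.1 and 60.9 on day 20. Of the 18 other zinc genes, 3 were higher and 8 lower on day 20 than on day 0, and 6 were higher and 5 lower than on day 10. Of all genes tested, 71.4% and 71.1% were called in those comparisons. Slc30a2 was almost lost, at 0.0736 to 0.348 CPM against 20.1 to 26.4 CPM on day 0 (-6.60 on the log2 scale) and 17.1 to 21.2 CPM on day 10 (-6.35). Against day 0, Slc39a6 differed by -1.58, Slc39a10 by -1.32 and Slc39a13 by 1.30. Against day 10, Slc30a4 differed by -1.99, Slc39a10 by -1.24 and Slc30a9 by 1.05.

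Genes whose pattern over the 8 intestinal libraries was most like the members' were ranked by Pearson's r of log2(CPM + 1), as a description over 4 groups of 2 libraries and among 9537 genes with a mean of at least 5 CPM. The mean of Mt1 and Mt2 was most like Ndfip2 (r = 0.983), Gstp3 (0.982), Alad (0.977), Tmem181b-ps (0.975) and B4galnt4 (0.975), and 13 genes had an r above 0.95. Ndfip2, an adaptor of ubiquitin ligases, was at 60.3 and 61.2 CPM in sham IEC and crypts and at 87.4 and 118 CPM after hepatectomy. Alad encodes a zinc-dependent enzyme of haem synthesis and was at 71.2, 69.8, 95.9 and 107 CPM in the same order. The pattern of Slc39a4 was most like Mmp7 (0.996), Galnt6 (0.995), P2rx4 (0.995), Snx3 (0.990) and Rsrp1 (0.989), and 77 genes had an r above 0.95. Mmp7, the protease that processes Paneth cell defensins, was at 62.5 CPM in sham IEC, 58.1 in sham crypts, 87.1 in hepatectomy IEC and 29.1 in hepatectomy crypts. Mmp7 is itself 1 of the 10 markers of the Paneth cell list. Its higher level in hepatectomy IEC is unlike most of that list, of which 8 fell and 1 rose in IEC. All these genes share the same libraries, and no test was made of the likeness.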

How the data were processed

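RNA was extracted with a Qiagen RNeasy kit and sequenced as Illumina libraries, per the labels' protocols. The submitters' processing notes name STAR, Partek and mm10 without versions. For the intestine the authors deposited expected counts per gene symbol. As 36.7% of these have decimals, all were rounded to whole numbers. For the samples labelled liver the authors deposited whole-number counts per gene identifier. The program that made them was not given in these sources. Of 24594 identifiers 24570 matched a symbol, and the 24 others hold 3.93 to 22.1% of a library's counts.

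The 4 intestinal groups and the 3 days were each fitted together in R 4.3.3 with edgeR 4.0.16 (TMM, filterByExpr with a minimum count of 10 and total of 15, quasi-likelihood F test, Benjamini-Hochberg, calls at an adjusted p under 0.05), on 18207 and 16694 genes. Groups come from the labels. The 8 genes and all lists were chosen with earlier results of these data known. The 8 genes are named throughout, other zinc genes by the largest log2 change among those called (up to 4, with 5 CPM or more in the higher group) and members of other lists by the highest CPM, of which not all are printed. Lists are described by counts and medians, without set tests. Exon lengths and positions come from GENCODE vM21. Promoter windows come from RefSeq and are shown up to the annotated gene.

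The alternatives tried were RLE size factors, DESeq2 1.42.0, leaving out each library, a replicate block, fitting only the groups compared, dropping the filter, and a stricter one (1 CPM in every library of a group and a mean of 5 CPM). Dropping the unmatched identifiers was added after the data were seen. No library was left out of the main values. On simulated data with the layout of the crypt, IEC and day 10 comparisons, 92.5%, 88.1% and 56.7% of 2-fold changes were called, on 18207, 18207 and 16694 genes, and unchanged genes made up 6.19%, 10.1% and 6.14% of calls. Each simulation changed 200 genes, all above a floor on the mean count, and used the dispersions of the same fit. The real comparisons called 37.5%, 37.8% and 43.6% of genes, so these shares may not carry over to them or to genes of low count.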

Additional observations from a re-analysis of the deposited data

Results flagged for a closer look

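The interaction term of edgeR's quasi-likelihood fit, crypts against IEC, passed an adjusted p of 0.05 for 6 of the 8 genes. Of all 18207 genes tested 19.2% passed, 9.15% with a higher value in crypts and 10.1% with a lower one. The term uses the crypt contrast whose Mt2 values were known when the genes were listed, so the values are a description and support nothing. The crypt effect minus the IEC effect, on the log2 scale, was 0.56 for Mt1, 0.97 for Mt2 and 0.98 for Slc30a1. The same difference was -1.07 for Slc30a10 and -1.26 for Slc39a4, the only one of the 6 whose 2 effects had opposite signs. For Slc39a14 it was -0.34, and this call was lost in 9 of 13 alternatives. Groups of 2 and 3 libraries are too small for a test of single outlying libraries.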

How the results depend on the processing

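Of 64 fitted values (8 genes in 8 comparisons), 49 kept their direction and their side of the threshold under every refit, and 887 of 933 refits did so in all. The other changes of calls are given with the genes above. Group means as CPM of all counts, without TMM, were not refitted: they turned the direction of 9 of 56 values, 4 of them called (Slc39a5 in sham crypts against IEC, Mtf1 on day 20 against day 0, and Slc39a4 on day 20 against both other days). The 20 changes of sign among refits concern values that did not pass the test, and the cause was not tested. With 1 library left out, the IEC change with hepatectomy ranged from -0.0502 to 0.201 for Mtf1 and from -0.126 to 0.164 for Slc30a1 (-0.0110 and -0.0135 being the other sign changes), and Slc30a1 was -0.0355 without the filter. For sham crypts against IEC, Mtf1 ranged from -0.00317 to 0.0932, with -0.00150 as the other sign change. For day 10 against day 0 the ranges were -0.00198 to 0.176 for Mtf1, -0.142 to 0.898 for Slc30a10, lowest without replicate 3 of day 10, and -0.191 to 0.101 for Slc39a5. Mtf1 was -0.0208 without the filter, and Slc39a5 was -0.183 without the filter, -0.0466 in a fit of these groups alone and -0.0489 without the unmatched identifiers. Members called on day 10 ranged from 2 to 4 over libraries left out. All genes called on day 10 numbered 3950 of 10740 with the stricter filter, against 7275 of 16694. In a fit of these groups alone 38.7% of day 10 calls were rises, against 56.8%. Without the filter the median log2 change of all genes was 0.46 on day 10, against 0.10, and 0.20 in IEC, against 0.02. CPM of all counts was 0.653 to 1.42 times the TMM level.

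Replicate numbers carry no stated pairing. Deviations of same-numbered libraries correlated between -0.028 and 0.111 in the intestine and between -0.0665 and 0.0482 in the libraries labelled liver. With a replicate block 6585 genes were called in crypts and 6774 in IEC, against 6822 and 6877, and 6461 on day 10, and no member's call changed.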

Other observations

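Slc39a4, known as the intestinal zinc importer, had a higher TMM-normalised level in the day 20 libraries (181, 177 and 184 CPM), which carried the hepatocyte markers, than in the day 0 and day 10 libraries, which carried intestinal ones. As CPM of all counts, without TMM, that order turned. Slc39a4 was then at 117.8 ± 2.34 on day 20, 132.1 ± 16.8 on day 0 and 120.5 ± 48.4 on day 10. Per kb of exon it stood above Slc39a14 on day 20, at 58.1 ± 1.23 against 11.7 ± 0.24 CPM per kb (SD, n = 3), while Slc39a5 was at 1.58 ± 0.28. Slc39a4 shares no 50-base word with another gene.

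By labelled group, the ratio of Mt1 to Mt2 counts did not follow the metallothionein level. It was 5.83, 6.94 and 7.51 on day 20, where both RNAs were low, and 4.69 to 5.2 on day 0, where both were high, against 10.6 to 14.7 on day 10.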
